A study of Homo sapiens with 2 samples.

Results

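The actin and tubulin genes described here are the 10 genes ACTB, ACTG1, TUBA1A, TUBA1B, TUBA1C, TUBB, TUBB2A, TUBB2B, TUBB3 and TUBB4B. Their peaks are the entries of the deposited DDX18 peak list whose name carries the Entrez identifier of 1 of these genes. By this rule 9 of the 10 genes had a peak, with 35 peaks among the 17163 entries and 6695 called genes of the list. DDX18 belongs to the DEAD-box family of RNA helicases and resides in the nucleolus. RNA in contact with it was measured by iCLIP, in which ultraviolet light links a protein to the RNA it touches and the linked RNA is purified with the protein and sequenced.

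The group comprised 2 samples of H9, a line of human embryonic stem cells, which expressed DDX18 carrying a 3XFlag tag under normal culture. Cells were irradiated at 254 nm with 160 mJ/cm2, and DDX18 was captured with an antibody to the tag. The labels name neither the promoter behind the tagged protein nor its level, and they mention feeder cells of mouse origin, whose reads were not separated here. No untagged or input sample was analysed here, and both samples share 1 list with 1 height per peak, so no value below has an error between samples and none was tested. The reads per sample are unknown here, and heights were not scaled to the amount of each RNA in the cells. Of the markers of pluripotent stem cells, 7 of 9 had a peak (exact 95% binomial interval 40.0 to 97.2%), against 31.0% of all protein-coding genes, with LIN28A highest at 36 and with none listed for POU5F1 and SOX2. Of the genes taken here as fibroblast markers, 5 of 8 had a peak (24.5 to 91.5%), with THY1 highest at 39 and with VIM, POSTN and DCN without a peak. Whether these genes, THY1 among them, are restricted to fibroblasts was not examined. Markers of neuroectoderm had a peak in 2 of 5 genes (5.27 to 85.3%), NES (height 15) and OTX2 (height 9). The last pair of intervals holds the share of all protein-coding genes. All the marker lists were chosen with earlier results of these data known, which the intervals do not cover. No share here is therefore shown to differ from that of all protein-coding genes.

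Actin is the subunit of microfilaments, the thin filaments that give a cell its shape and let it crawl and contract. Alpha-tubulin and beta-tubulin join as a pair, and the pairs build microtubules, the tracks of intracellular transport and of the mitotic spindle. Each protein is encoded by several genes with closely similar coding sequences, and dividing cells carry the mRNAs of several of them in large amounts. Free tubulin lowers the stability of tubulin mRNAs during their translation, a feedback long studied in this family.

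A peak was listed in 9 of 10 actin and tubulin genes (90%), against 6218 of 20056 protein-coding genes (31.0%). The exact 95% binomial interval of the first share ran from 55.5 to 99.7% and covers counting error only. It does not cover the choice of the 10 genes, which was made with earlier results of these data known. Of 20 other genes of the same families, 2 had a peak. The larger background holds genes that these cells may not express. The actin genes, both with a peak, had 13 peaks with heights of 37 to 188, a median of 55 and a sum of 1044. The 3 alpha-tubulin genes, all with a peak, had 14 peaks of heights 7 to 51, with a median of 20.5 and a sum of 317. Of the 5 beta-tubulin genes 4 had a peak, with 8 peaks of heights 8 to 29, a median of 11.5 and a sum of 119. The 35 peaks summed to 1480, of which the actin genes held 70.5%. This is 0.226% of the summed height of all 16095 distinct positions. Over protein-coding genes alone, with positions in small RNAs and repeats included, intronic positions held 68.9% of the summed height. Their median height was 6 and the highest of them stood at 76702, so this share does not describe a usual intronic position. The median height was 29 in the actin and tubulin genes and 8 over all 15599 distinct positions called in protein-coding genes, whose 95th percentile was 32. The lowest height listed in a gene was higher where the gene-level value PH0, described below, was higher. These medians therefore do not compare peaks above a common cutoff.

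**Figure D1:**
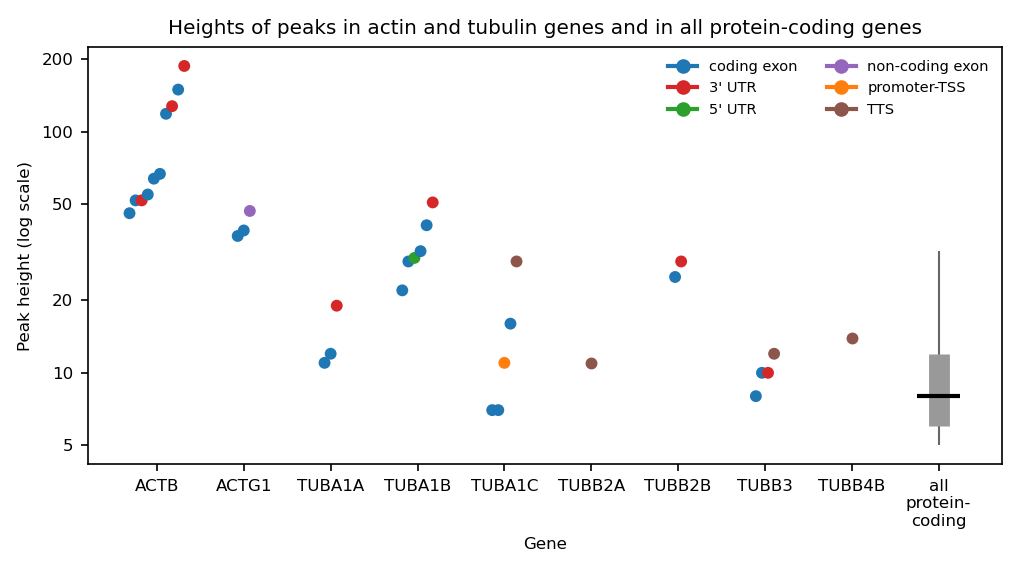
Height of each listed peak (log scale) in the 9 actin and tubulin genes with a peak, coloured by annotated region, beside the peaks of all protein-coding genes, drawn as median (line, 8), quartiles (box, 6 and 12) and the 5th to 95th percentiles (thin line, 5 to 32). All 13 actin peaks lie above 32, whereas the beta-tubulin peaks lie at 29 or below. The lowest listed height differs between genes and was higher where PH0 was higher.

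Positions are those of the hg19 build. ACTB (Entrez 60), which encodes the cytoplasmic beta-actin, lies on the minus strand of chromosome 7 and had 10 peaks with a summed height of 921. From the 5' to the 3' end their heights were 67 in coding exon 2 of 6, 52 in exon 3, 150, 64 and 46 in exon 4, 55 in exon 5, 119 in the coding part of exon 6, and 52, 188 and 128 in the 3' UTR. No peak was listed in exon 1. The highest, of 188, stood at position 5567103 and was 1 nt wide. Heights were thus not even along the message: 4 of the 10 peaks exceeded 100, namely 1 in exon 4, 1 in the last coding stretch and 2 in the 3' UTR, and the other 6 lay between 46 and 67. The last exon held 4 peaks and 52.9% of the gene's summed height. Among the 14285 positions of protein-coding genes outside small RNAs and repeats, the peak of 188 ranked 22 and the exon 4 peak of 150, at position 5568309, ranked 35. Consecutive peaks lay between 125 and 594 nt apart on the genome, introns included, with a median of 187 nt. ACTB had more peaks than 96.3% of called protein-coding genes and a greater summed height than 99.3% of them.

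ACTG1 (Entrez 71), the gene of cytoplasmic gamma-actin, had 3 peaks on the minus strand of chromosome 17 with a sum of 123. They had heights of 39 in coding exon 2 of 6 (position 79479330), 37 in coding exon 4 (positions 79478481 to 79478483) and 47 at position 79477119. This last peak was annotated to exon 7 of 7 of a non-coding transcript. The 3 heights were close to each other, and of them only the 47 exceeded the lowest ACTB peak, of 46. The summed height of ACTB was 7.49 times that of ACTG1. The gene-level value PH0, described below, differed by 2.06 times. The 10 genes with a PH0 within 20% of that of ACTB had no listed peak below 38.

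**Figure D2:**
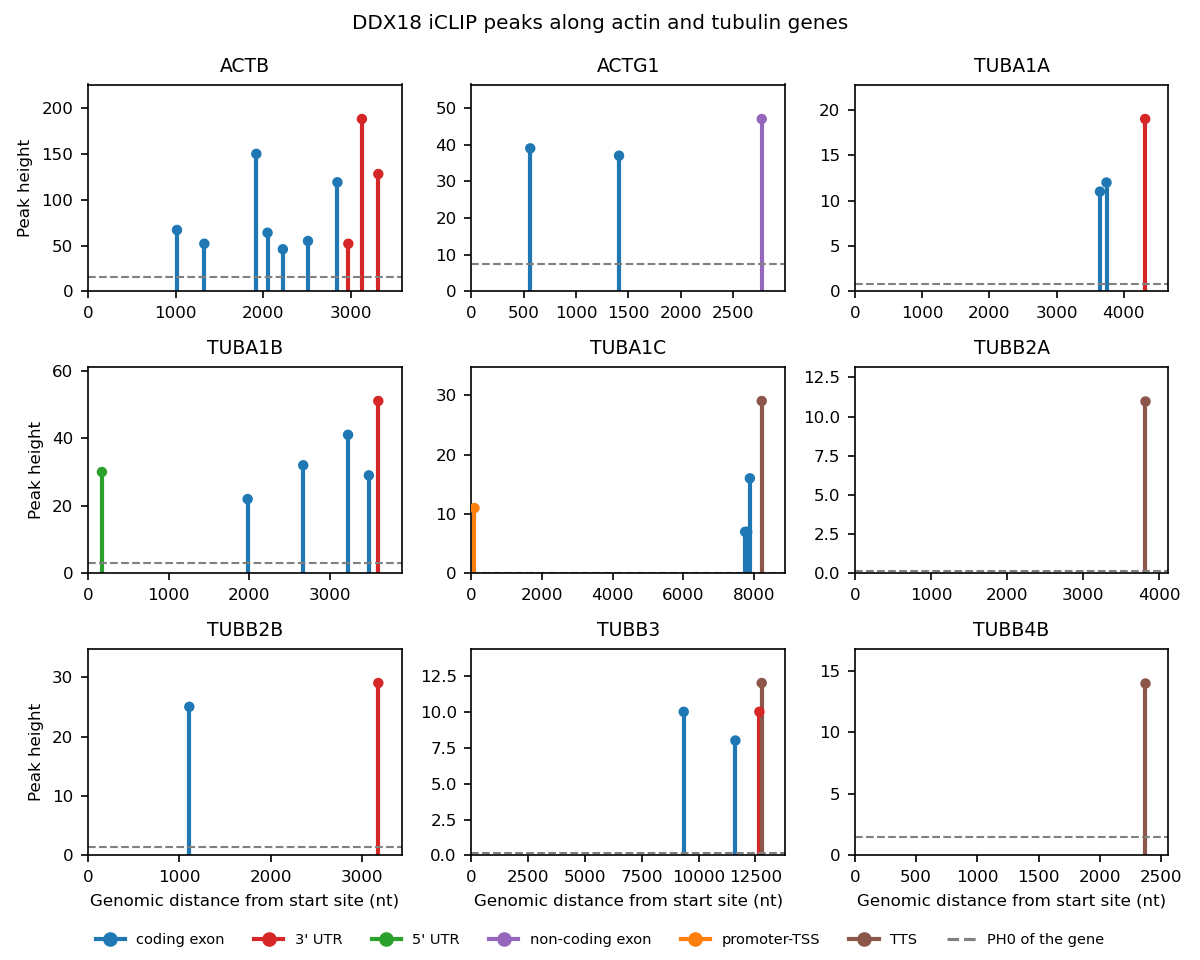
Peaks along each of the 9 genes with a peak, drawn at their genomic distance from the annotated start site in nt (x axis, introns included) with the peak height on the y axis, which starts at 0 and has its own scale in each panel. Colours give the annotated region and the dashed line the PH0 value of the gene. In every panel the highest peak is the one farthest from the start site or, in ACTB, the one before it. TUBB2A and TUBB4B have 1 peak each, for which this could not be otherwise.

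The 3 alpha-tubulin genes lie near each other on chromosome 12, with TUBA1B and TUBA1A on the minus strand and TUBA1C on the plus strand. TUBA1B (Entrez 10376), expressed in most cell types, had 6 peaks that summed to 205. Their heights were 30 in the 5' UTR, 22 in coding exon 2 of 4, 32, 41 and 29 in coding exon 4, and 51 in the 3' UTR at position 49521704. The 5' UTR peak lay 173 nt from the start site, at position 49525131, and was the only 5' UTR peak among the 35. TUBA1B thus had peaks over both ends of its message. All 6 stood above the list's median of 8, but genes with a PH0 within 20% of that of TUBA1B had no listed peak below 17. Standing above 8 was therefore set by the lower limit of such genes.

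TUBA1A (Entrez 7846), best known for its part in neuron migration in the developing brain, had 3 peaks with a sum of 42. Heights were 11 and 12 in coding exon 4 of 4 and 19 in the 3' UTR at position 49578789. Every TUBA1A peak was lower than the lowest TUBA1B peak. However, genes with a PH0 within 20% of that of TUBA1B had no listed peak below 17. Peaks of 11 or 12 may thus not have been listed in TUBA1B, and the contrast is not one of bound RNA. TUBA1C (Entrez 84790), another alpha-tubulin gene, had 5 peaks with a sum of 70. The first, of height 11, was labelled as a start-site peak and lay 86 nt downstream of the start. The next stood 7663 nt farther along the genome, where coding exon 4 of 4 held peaks of 7, 7 and 16. A peak of 29 at positions 49667083 to 49667085 was labelled TTS, the annotation's name for the stretch around a transcript's end.

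Among the beta-tubulin genes, TUBB2B (Entrez 347733), a gene of the developing nervous system, had the highest peaks. On the minus strand of chromosome 6 it had heights of 25 in coding exon 2 of 4 (position 3226860) and 29 in the 3' UTR (position 3224794), and both peaks were 1 nt wide. TUBB2A (Entrez 7280), its neighbour and near-copy, had 1 peak of height 11 at positions 3153963 to 3153980, labelled TTS. TUBB3 (Entrez 10381), the beta-tubulin used as a marker of neurons, had 4 peaks on the plus strand of chromosome 16. They had heights of 10 in coding exon 2 of 4, 8 in coding exon 4, 10 in the 3' UTR and 12 at the annotated end, at positions 90002460 to 90002469. The start site nearest to this last peak belonged to DEF8, a gene downstream of TUBB3. TUBB4B (Entrez 10383), a beta-tubulin gene of wide expression, had 1 peak of height 14 at positions 140138072 to 140138086 of chromosome 9, labelled TTS. TUBB3 and TUBB2A peaks were therefore close to the list's median of 8, whereas both TUBB2B peaks were more than 3 times as high as that median. The lower limits of these genes differed. Among genes with a PH0 within 20% the lowest listed height was 12 for TUBB2B, 7 for TUBB3 and 6 for TUBB2A.

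No entry of the list was called in TUBB (Entrez 203068), the beta-tubulin gene that many dividing cells use most, and its neighbours were without peaks as well. Of the 25 protein-coding genes to each side of TUBB on chromosome 6, 0 of 50 had an entry. TUBB lies in a run of 175 consecutive protein-coding genes with no entry, between ZKSCAN3 and ITPR3. This was the longest of 3928 such runs on all chromosomes, whose median was 2 genes and whose next longest, on chromosomes 1 and 11, had 64. The order of genes comes from the GRCh38.p14 gene table. In the list's own positions, 0 entries of any kind lay in the 5.33 Mb between position 28333437, the last peak of ZKSCAN3, and position 33659646, the first of ITPR3. This stretch holds the major histocompatibility complex. A wider stretch of chromosome 6 without entries, of 5.85 Mb between EYS and LMBRD1, spanned 3 protein-coding genes. Outside the run, 33.6% of the 874 protein-coding genes of chromosome 6 had a peak. POU5F1 and PFDN6, a subunit of the prefoldin chaperone, are the other genes of the lists used here that lie in the run. The missing TUBB peaks cannot be told apart from the missing peaks of the whole stretch, and the reason for the empty stretch was not tested.

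Positions called in several of these paralogs were looked for and numbered 0 of 35. A position is a place on the genome and these genes lie at separate places. This count therefore could not show reads shared between copies. In the whole list 573 of 16095 positions (3.56%) stood under more than 1 gene. No peak of another gene lay on either strand within 2000 nt of the peaks of any of the 9 genes. Of 72 pseudogenes in the gene table whose symbols derive from these genes, 1 had a peak. ACTG1P20, a transcribed pseudogene on chromosome 1, had height 41 at positions 27651975 to 27651980, between the heights of the ACTG1 peaks. The sources used here do not say how the authors placed reads that match several copies, so the split of reads between paralogs is uncertain.

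Of the 35 peaks, 21 lay in coding exons (60%, interval 42.1 to 76.1), 7 in 3' UTRs (20%, 8.44 to 36.9) and 4 at annotated ends. A further 1 each lay in a 5' UTR, a start-site stretch and a non-coding exon. Introns held 0 of the 35. This allows a share of up to 8.57% by a limit of 3 counts and of up to 10% by the exact interval. Over all protein-coding genes introns held 18.0% of the positions, and this larger set includes peaks in small RNAs and repeats. In that larger set, coding exons held 47.8% and 3' UTRs 18.7%. Its intronic positions had a median height of 6. Genes with a PH0 within 20% of that of ACTB had no listed peak below 38, and for TUBA1B none below 17. Intronic peaks of usual height could thus go unlisted in such genes, and the intron shares are not above a common height. Peaks in one gene share a transcript and are not independent, so these intervals cover counting error only. None of the 35 lay in a small RNA gene or a named repeat.

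The highest peak of each of the 9 genes lay in the last exon of its annotated transcript or at the annotated end, and 22 of the 35 peaks lay there (62.9%, 44.9 to 78.5). All peaks of TUBA1A, TUBB2A and TUBB4B lay there, so the highest peak of these genes could not lie elsewhere. In all protein-coding genes, 39.2% of 5675 genes had their highest peak there and 33.7% of 14285 positions did, with peaks in small RNAs and repeats left out. The number of exons differs between these sets. Exonic peaks in the actin and tubulin genes lay in transcripts with a median of 4 exons, against 14 over the exonic peaks of all protein-coding genes. In ACTB, TUBA1A, TUBA1B and TUBB2B the highest peak was in the 3' UTR. In TUBA1C, TUBB2A, TUBB3 and TUBB4B it carried the TTS label, and in ACTG1 it lay in the last exon of the non-coding transcript.

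Peaks in the actin and tubulin genes were narrow. Of the 35, 16 (45.7%) were 1 nt wide, against 1221 of 15599 positions (7.83%) in all protein-coding genes, and the median width was 2 nt against 13 nt. The 16 single-nucleotide peaks had heights of 19 to 188 with a median of 49, and the 19 wider ones reached 52 with a median of 12. In the full set single-nucleotide positions were likewise higher, with a median of 15 against 8. Single-nucleotide peaks made up 8 of the 10 in ACTB and both in TUBB2B, whereas TUBA1C, TUBB2A, TUBB3 and TUBB4B had none.

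Each peak name also carries PH0, a value the sources used here do not define, which was the same for every peak of a gene in all 6695 called genes. PH0 was 15.62 in ACTB, 7.57 in ACTG1, 3.11 in TUBA1B, 1.52 in TUBB4B, 1.35 in TUBB2B, 0.80 in TUBA1A, 0.17 in TUBB3, 0.16 in TUBB2A and 0.10 in TUBA1C, against a median of 0.05 over the 6218 called protein-coding genes. ACTB ranked 13 and ACTG1 ranked 40 among these genes. The order by PH0 was not the order by height. TUBA1C, with the lowest PH0 of the 9, had a peak of 29 at its end, 290 times its PH0, while the ACTB peaks were 2.94 to 12.0 times theirs. TUBB4B had a PH0 close to that of TUBB2B but 1 peak of 14 where TUBB2B had peaks of 25 and 29.

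The lowest peak listed in a gene was higher where PH0 was higher. Across the 6218 genes Spearman's rho between PH0 and the lowest listed height was 0.78, a description of points that share the same libraries and the same peak caller. Genes with PH0 up to 0.05 had a median lowest height of 6, and genes with PH0 above 5 one of 55. In ACTB the lowest listed peak was 46, and of the 10 genes with a PH0 within 20% of it, 1 had a lower one. In TUBA1A it was 11, with 0 of 120 such genes lower, and in TUBB4B 14, with 5 of 52 lower. TUBA1C (7), TUBB3 (8), TUBA1B (22) and ACTG1 (37) had 119 of 524, 128 of 443, 14 of 33 and 10 of 20 such genes lower. TUBB2A (11) and TUBB2B (25) lay above most genes of like PH0, with 432 of 480 and 52 of 57 lower. A peak as high as the 29 of TUBA1C would therefore be below every peak listed for ACTB. Numbers of peaks in genes of unlike PH0 are thus not counts above a common height, and their heights have no common lower limit.

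**Figure D3:**
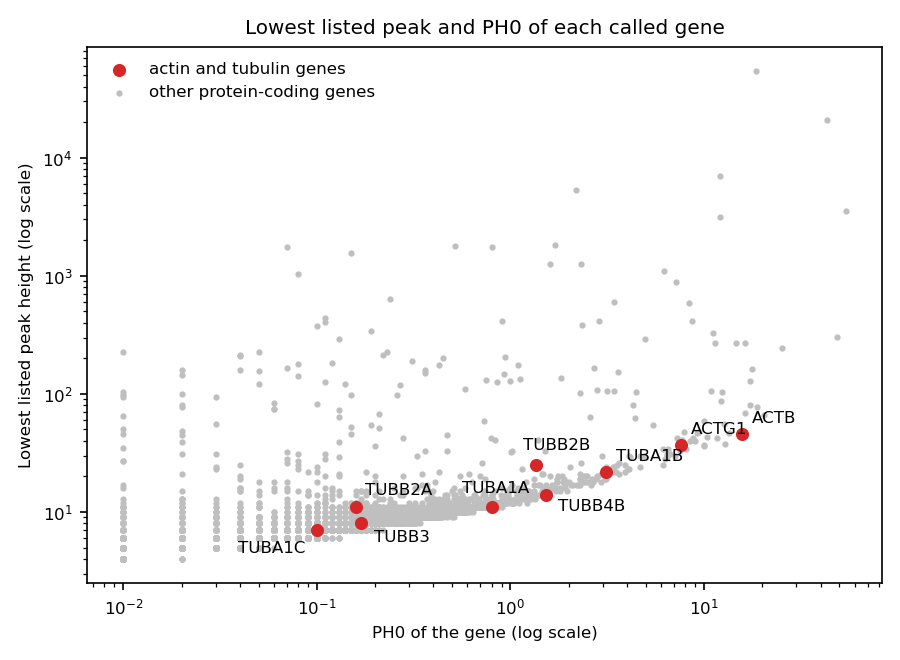
Lowest listed peak height (y, log scale) against PH0 (x, log scale) for called protein-coding genes, with the actin and tubulin genes in red and 458 genes with a PH0 of 0 not drawn. The lower edge of the points rises with PH0, and ACTB, with PH0 of 15.62 and a lowest peak of 46, lies at its upper right end, while TUBB2B and TUBB2A lie above the edge.

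The deposited p-values followed height within each gene. In all 2944 protein-coding genes with several peaks, p never rose as height rose. Of the 35 peaks, 17 (48.6%) stood at 1e-100, the lower limit of the deposited values, against 15.7% of all entries. In ACTB the 6 peaks of 64 or more were at that limit, and the peak of 46 had a p of 0.0108. In TUBA1B 5 of the 6 peaks were at the limit, in TUBA1C 3 of 5, in TUBB2B 2 of 2 and in TUBB3 1 of 4, and in ACTG1, TUBA1A, TUBB2A and TUBB4B none. The largest p of the 35 was 0.019, for the TUBA1A peak of height 11, and that of TUBB4B was 0.0116, where the list as a whole reached 0.05.

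Of the 20 other actin and tubulin genes, 2 had a peak (10%, interval 1.23 to 31.7), against 31.0% of protein-coding genes, a share that the interval holds. The number was 0 with exonic peaks only and 4 by the gene of the nearest start site. These were TUBB4A, a beta-tubulin gene of the brain, with height 6 at its annotated end, and TUBD1, the gene of delta-tubulin, a centriole protein, with height 6 in intron 2 of 7. None was listed for the muscle actins ACTA1, ACTA2, ACTC1 and ACTG2, nor for TUBG1 and TUBG2, the gamma-tubulins that start new microtubules, nor for TUBB6. Their expression in these samples was not analysed here.

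Genes that fold actin and tubulin had a peak in 12 of 21 (57.1%, 34.0 to 78.2). All 8 genes of the chaperonin CCT, the ring that folds both proteins, had at least 1. For CCT6A this was 1 peak of height 8 with a start-site label, and the nearest start site belonged to SUMF2. TCP1 was highest at 35, a peak that lay in the snoRNA gene SNORA20, and CCT2 and CCT4 followed with 17 each, in coding exons 8 of 16 and 7 of 13. Of the 6 prefoldin genes, which hand actin and tubulin to the chaperonin, PFDN4 had a peak of height 7. Of the tubulin cofactors, which assemble the alpha-beta pair, TBCD had a peak of 14, TBCB one of 10 and TBCA one of 8, whereas TBCC and TBCE had none. No peak was listed for TTC5, which recognises nascent tubulin when its mRNA is to be degraded.

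Actin-binding genes had a peak in 17 of 26 (65.4%, 44.3 to 82.8). FLNA, the gene of filamin A, a crosslinker of actin filaments, had 36 peaks with a sum of 1337 and a highest of 79 in coding exon 30 of 47, on chromosome X. PFN1, the gene of profilin, which delivers actin subunits to growing filaments, had 4 with a highest of 59 at its annotated end. CFL1, the gene of cofilin, which severs filaments, and ACTN4, the gene of a filament-bundling alpha-actinin, reached 29 each, both in stretches labelled TTS. Summed height was thus larger in FLNA than in ACTB (921), although the highest ACTB peak (188) stood above the highest of FLNA. The median over genes of the highest peak was 29 in the actin and tubulin genes, 13.5 in the folding genes, 10 in the actin-binding genes and 7 in all called protein-coding genes.

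**Figure D4:**
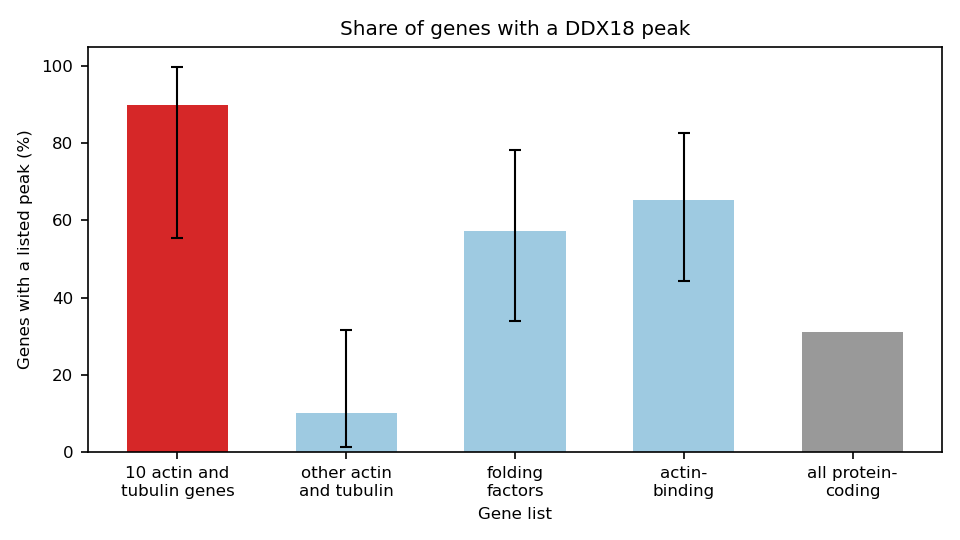
Percentage of genes with a listed peak in the 10 actin and tubulin genes, the 20 other genes of these families, 21 folding genes, 26 actin-binding genes and all 20056 protein-coding genes. Error bars are exact 95% binomial intervals and cover counting error only, with shares of 90%, 10%, 57.1%, 65.4% and 31.0% from left to right.

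The 3 called genes most like ACTB were SFRP2, EEF2 and RPL4, by the Euclidean distance over log2 number of peaks, log2 highest peak and log2 summed height in this 1 list. SFRP2, which encodes a secreted regulator of Wnt signalling, had 9 peaks with a highest of 157 and a sum of 546 (distance 0.81). EEF2, the gene of a translation elongation factor, had 16 with a highest of 138 and a sum of 861 (distance 0.82). RPL4, a ribosomal protein gene, had 7 with a highest of 301 and a sum of 774 (distance 0.89), and 4 of its 7 lay in small RNAs or repeats. The likeness is of counts and heights only.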

How the data were processed

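The authors deposited peak height, an unscaled signal in whole numbers, in 1 list for both samples. Per the file headers, peaks were annotated on hg19 with annotatePeaks.pl. The submitters' processing notes name FastQC 0.10.1 and BWA. The sources used here do not give the peak caller, the placement of reads or the treatment of duplicates. PH0 and p-values are the authors' deposited values in each peak name, and distances to start sites are the authors' annotation. Per the labels, nothing says whether the 2 samples were separate cultures.

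Entries were assigned to genes by the Entrez identifier in the peak name, and 6677 of 6695 matched the RefSeq gene table of GRCh38.p14, used for names, biotypes, gene order and, for small RNA genes, length. Distances from the start site were counted along the gene's strand. Intervals are exact (Clopper-Pearson, 95%). No test was run. The named genes were the 10 genes, the 3 highest of each list (with ties, and the genes a family description needed, chosen after their values were seen), peak-bearing pseudogenes and the 3 genes nearest to ACTB. Members and lists were chosen with earlier results of these data known. The windows around TUBB and around PH0 were chosen after seeing the data. Counting was tested on simulated data. Python 3.11.15, pandas 2.3.3 and SciPy 1.17.1 were used. Sequences under the peaks are not shown because no hg19 genome was used here.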

Additional observations from a re-analysis of the deposited data

How the results depend on the processing

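The 8 main counts and values were recomputed under up to 7 alternatives each. Exons only gave no coding share, and merging overlapping peaks was run for peak counts, coding share and median height. Of the 50 values obtained, 42 stayed within 1.5 times of the main value or, for the coding share, within its interval. Part of this was fixed in advance. No peak of the actin and tubulin genes lay in a small RNA or repeat, stood under several genes or overlapped another. Leaving out or merging such peaks could thus not change the values of these genes. The number of actin and tubulin genes with a peak was 7 to 9, with 7 for exons only (TUBB2A and TUBB4B have peaks at annotated ends alone) and 8 for deposited p at or below the median, which left out TUBB4B. Their peaks numbered 27 to 35, the median height was 29 to 37 and the coding share 51.9 to 61.8%. At deposited p at or below the median, protein-coding genes with a peak numbered 3459 (17.2%), other actin and tubulin genes 1 and actin-binding genes 11. At a height of 10 or more these numbers were 1761 (8.78%), 0 and 10, and this minimum removes low peaks by construction. Other actin and tubulin genes numbered 0 for exons only and 4 for the gene of the nearest start site. Protein-coding genes with a peak numbered 4387 (21.9%) and 5866 (29.2%) under these 2 alternatives. No paired analysis was possible because the list has no value per sample, and for the same reason no replicate could be left out. Depth per sample is unknown, so a gene without a peak is not shown to lack bound RNA.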
